A study of Homo sapiens with 18 samples.

Results

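The gene loci described here lie in 2 stretches of human chromosome 10 in which a clonal PCIF1 knockout line of melanoma cells, KO2, had higher RNA levels than its control line. Stretch 1 runs from 42513510 to 79677996 (37.2 Mb) and stretch 2 from 87094161 to 131981967 (44.9 Mb) on hg38. The rule took every gene of the expression table that lies whole within a stretch and has a mean of at least 1 TPM (transcripts per 1e+06, a level corrected for gene length and library depth) over the 9 libraries. It left out named genes and gene families such as ZNF, SLC and COL. It found 339 loci, 128 in stretch 1 and 211 in stretch 2, of 14512 genes at or above that mean and 15258 in the table. Of the 401 listed loci whole within the stretches, 25 were under 1 TPM and 37 were left out by name. The 339 comprise 298 protein-coding genes, 29 lncRNAs and 12 loci of other kinds, mainly pseudogenes.

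The study used MEL624, an established human melanoma cell line, in 3 forms with 3 biological replicates each, named A, B and C. The control line is wild type and carries a random sgRNA, and KO1 and KO2 are independent clonal lines with a CRISPR knockout of PCIF1. Each knockout line is 1 clone, so the loss of PCIF1 and any other difference between clones cannot be told apart. Input mRNA libraries, made before m6A immunoprecipitation, were used, and the 9 m6A libraries of the series were not analysed here. The stretches were chosen on the difference between KO2 and control, so that difference is given below as a description with no test. The difference between KO1 and control does not appear in the rule and is tested. It shares the control libraries, though, and the members were chosen with earlier results of these data known. The KO1 results are thus no independent test.

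Genes that neighbour each other on a chromosome mostly have unrelated functions. The level of a gene's RNA depends on its own promoter, the chromatin around it, the number of copies of the locus and the stability of the transcript. PCIF1 methylates the adenosine that follows the mRNA cap, so that its substrates are transcripts whose first base is A.

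The promoters of 6 members are shown for the patterns described below. HNRNPF and SCD stand for differences in KO2 above the member median (log2 0.65 and 0.57, beside 0.42), and TFAM for a larger one (0.90). HKDC1 was the member highest above control in KO2, TCF7L2 was higher in both knockout lines, and ABCC2 was the member farthest below control in KO2 and was low in KO1 too. Each run holds the 120 bases before the RefSeq start site and the start base itself (GRCh38.p14), 5′ to 3′ on the gene's strand. Capitals mark the start base at the 3′ end and matches, on either strand, to GGGCGG (GC box), CCAAT and CCGGAAG (ETS motif).
HNRNPF: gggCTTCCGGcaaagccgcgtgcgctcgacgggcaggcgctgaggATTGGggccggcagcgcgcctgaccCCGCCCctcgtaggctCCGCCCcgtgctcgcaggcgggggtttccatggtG
TFAM: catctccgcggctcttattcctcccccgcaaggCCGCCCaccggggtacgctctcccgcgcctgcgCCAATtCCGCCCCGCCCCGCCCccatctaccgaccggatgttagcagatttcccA
HKDC1: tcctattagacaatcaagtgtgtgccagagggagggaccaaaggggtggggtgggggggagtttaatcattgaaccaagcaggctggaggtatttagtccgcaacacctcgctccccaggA
SCD: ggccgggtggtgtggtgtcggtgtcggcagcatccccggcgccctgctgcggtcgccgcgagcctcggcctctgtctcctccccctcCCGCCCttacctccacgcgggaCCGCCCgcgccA
TCF7L2: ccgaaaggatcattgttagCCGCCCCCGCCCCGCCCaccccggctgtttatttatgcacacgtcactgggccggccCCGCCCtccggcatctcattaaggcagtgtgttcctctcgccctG
ABCC2: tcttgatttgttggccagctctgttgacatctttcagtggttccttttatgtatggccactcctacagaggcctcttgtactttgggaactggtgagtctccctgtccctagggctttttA
They lie at chr10:43408857-43408977 on the minus strand for HNRNPF, and on the plus strand at chr10:58385290-58385410 for TFAM, chr10:69220212-69220332 for HKDC1, chr10:100347113-100347233 for SCD, chr10:112950127-112950247 for TCF7L2 and chr10:99782520-99782640 for ABCC2. In TFAM and TCF7L2 GC box matches overlap or adjoin each other, while the HKDC1 and ABCC2 runs hold none of the 3 motifs.

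The libraries held 7848089 to 11393206 reads on listed genes, 84602764 in all, recovered as whole numbers from the deposited values. The edited gene, PCIF1, stood at 57.6 ± 3.84 TPM in control (SD, n = 3), 24.0 ± 1.77 in KO1 and 60.3 ± 3.86 in KO2. Its log2 difference from control was -1.26 in KO1 (limma adjusted p = 1.65e-06; exact permutation p = 0.100, the smallest that 3 against 3 allow) and 0.07 in KO2 (limma adjusted p = 0.542; exact permutation p = 0.500). An edited gene may still be transcribed, so this level does not check the KO2 label. Of 10 melanocyte markers the table lists 2, MITF and ERBB3, at a summed 39.6 to 42.1 TPM in control, 24.9 to 30.0 in KO1 and 48.6 to 52.7 in KO2. The sum follows MITF, while ERBB3 went the other way in KO2, with means of 3.56 TPM in control, 0.810 in KO1 and 0.959 in KO2. Single markers of blood (CD68, 180 to 192, 129 to 139 and 134 to 143 TPM) and epithelium (KRT8, 89.1 to 95.2, 84.7 to 94.5 and 90.4 to 98.9 TPM) are listed, and 3 of fibroblasts at a summed 10.8 to 13.5 TPM. The part of these markers in the results below was not tested.

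In KO2 most loci of both stretches were higher than in control, by amounts that varied from gene to gene. The median log2 difference over the 339 was 0.42, or 1.33-fold, and the middle 50% of them lay between 0.27 and 0.58. The median over all tested genes was 0.01. The mean of KO2 was above that of control for 314 loci and below it for 25, that is 92.6% above, against 51.7% of all tested genes. All 3 KO2 libraries were above all 3 control libraries for 266 loci, 78.5% of the members beside 22.3% of all tested genes, and below them for 12, beside 21.4%. By the limma fit 244 members were called higher and 5 lower at an adjusted p under 0.05 (253 and 12 by limma-voom on recovered reads). The shares over all tested genes were 15.6% and 14.8% in the limma fit and are not given for limma-voom. Because this contrast chose the stretches, the counts describe the choice and support nothing further.

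Differences of moderate size were the most frequent. The fold of KO2 over control was between 1.25 and 1.75 for 203 members (59.9%, beside 11.5% of all tested genes). It was at least 2 for 15 members (4.42%, beside 2.18%) and at most 0.5 for 4 (1.18%, beside 2.43%). The median was similar at every level of expression. Split by level into 3 sets of 113, the lowest set (1.04 to 12.9 TPM) had a median log2 difference of 0.43, the middle set (13.1 to 40.3 TPM) 0.42 and the highest (41.5 to 776 TPM) 0.40. The interquartile range was wider in the lowest set, 0.19 to 0.68, than in the highest, 0.27 to 0.54. By kind of gene, 278 of 298 protein-coding members lay above 0 with a median of 0.40, and 26 of 29 lncRNAs with a median of 0.64.

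**Figure D1:**
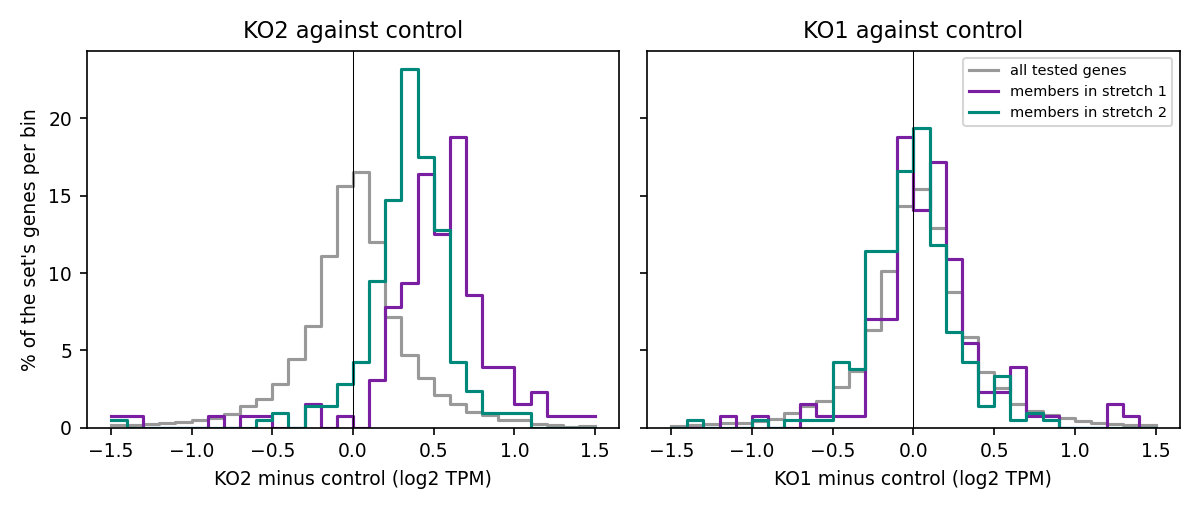
Share of genes (y axis, % of each set) per bin of the log2 TPM difference from control (x axis) for KO2 at left and KO1 at right. In KO2 the curves of stretch 1 (median 0.58) and stretch 2 (median 0.36) sit to the right of all tested genes (median 0.01), and in KO1 the 3 curves overlie each other.

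The 3 KO2 libraries, which entered the choice of the stretches, had similar medians one by one. The median member stood 0.40, 0.41 and 0.43 above the control mean on the log2 scale in KO2 A, B and C. In KO1 A, B and C it stood 0.01, 0.03 and 0.00 above it. Each control library, set against the other control libraries, gave 0.03, -0.01 and -0.02. All 3 KO2 values lay above all KO1 and control values, which describes the choice and supports nothing further. In reads, the members took 2.16%, 2.14% and 2.13% of the control libraries A, B and C, 2.13%, 2.17% and 2.15% of the KO1 libraries, and 2.83%, 2.78% and 2.82% of the KO2 libraries. The ratio of the mean KO2 share to the mean control share was 1.31. These are bulk libraries, in which a higher level per cell and a larger share of cells at a high level cannot be told apart.

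**Figure D2:**
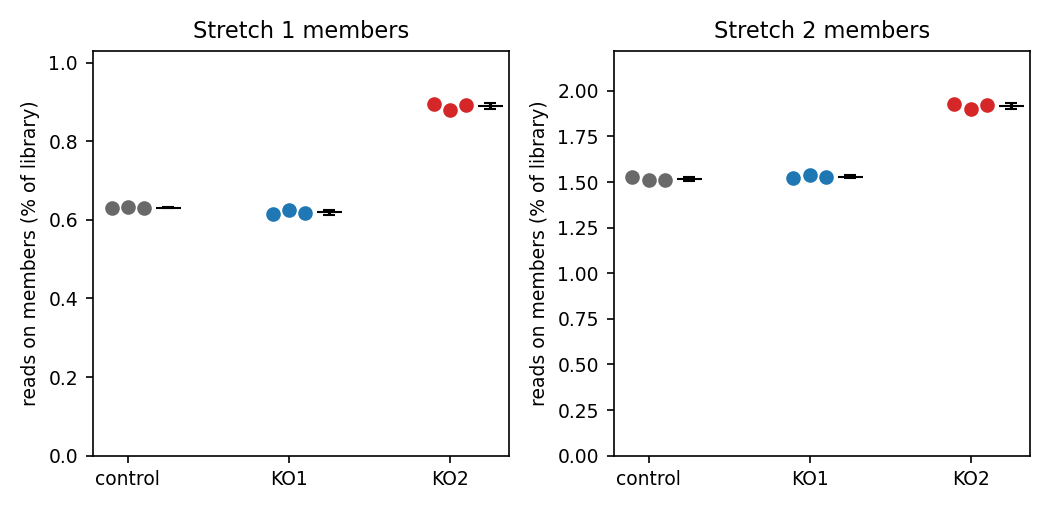
Percent of each library's reads on the members of stretch 1 (left) and stretch 2 (right), 1 point per library, with the mean and SD of each line as a bar beside the points. The KO2 libraries lie at 0.880% to 0.896% and 1.90% to 1.93%, above the control libraries at 0.630% to 0.633% and 1.51% to 1.53%, and the KO1 libraries lie at 0.615% to 0.626% and 1.52% to 1.54%.

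The difference in KO2 was larger in stretch 1 than in stretch 2. The median log2 difference was 0.58 (1.49-fold) over the 128 members of stretch 1 and 0.36 (1.28-fold) over the 211 of stretch 2. Library by library it was 0.55, 0.58 and 0.57 in stretch 1 and 0.35, 0.35 and 0.36 in stretch 2. These libraries are of 1 clone and entered the choice of the stretches, so the values are a description. The share of reads was 1.41 times the control share in stretch 1 and 1.27 times in stretch 2. Above 0 were 120 of 128 and 194 of 211 members.

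Along the chromosome the difference extended through both stretches. In windows of 10 Mb the median log2 difference of the members was 0.64 from 40 to 50 Mb (26 loci), 0.73 from 50 to 60 Mb (14 loci), 0.43 from 60 to 70 Mb (28 loci) and 0.59 from 70 to 80 Mb (60 loci). In stretch 2 it was 0.37 from 90 to 100 Mb (59 loci), 0.33 from 100 to 110 Mb (60 loci), 0.36 from 110 to 120 Mb (43 loci) and 0.30 from 120 to 130 Mb (30 loci). The window from 50 to 60 Mb is thinly filled. Between 70 and 75 Mb all 47 members were above 0, with a median of 1.52-fold, and between 100 and 105 Mb 55 of 57 were, with a median of 1.26-fold. Counting the loci left out by name too, the longest unbroken run of tested loci above 0 held 47 loci in stretch 1, from VSIR to ZNF503, and 33 in stretch 2, from KAZALD1 to PDCD11.

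The loci outside the rule place these values. The 125 tested loci of chromosome 10 before stretch 1 had a median log2 difference of -0.01 in KO2, with 57 above 0. The 24 loci between the stretches had a median of 0.19 (18 above 0), and the 14 after stretch 2 a median of 0.46 (14 above 0). The 37 loci left out by name had a median of 0.46, with 30 above 0. On other chromosomes the median was 0.00.

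The ends of the rule did not all show a step. Just inside the start of stretch 1, LINC01518 stood at 1.69 ± 1.27 TPM in control and 4.89 ± 2.05 in KO2 (3.25-fold), and BMS1, a ribosome assembly GTPase, at 57.3 ± 0.244 and 87.1 ± 2.94 (1.52-fold). The values that follow are log2 differences of KO2 from control. Just outside, LINC00839 had a difference of 0.87 and CCNYL2 of 0.25. At the end of stretch 1 the lncRNAs ENSG00000244733 and ENSG00000272489 had 1.03 and 1.42 inside, and ENSG00000280355 and ENSG00000224886 had 0.03 and 0.84 outside. The last inside pair overlaps on the same strand, so their reads may be split between them. ENSG00000272489 was low, at 2.26 ± 0.778 TPM in KO2, and its KO2 values overlapped those of control. The loci named inside stretch 1 were above control in KO1 too. Their KO1 differences were 1.30 for LINC01518 (limma adjusted p = 0.0519) and 0.20 for BMS1 (0.00439). They were 0.56 for ENSG00000244733 (limma adjusted p = 0.0285) and 1.22 for ENSG00000272489 (0.183). Stretch 2 starts with SHLD2 (0.43), a protein of double-strand break repair, and NUTM2A-AS1 (0.53). Before it lie GLUD1 (0.15), which overlaps the end of the rule and is no member, and ENSG00000273413 (-1.38). It ends with PPP2R2D (0.46), a regulatory subunit of protein phosphatase 2A, and BNIP3 (0.54), a mitophagy receptor, and is followed by STK32C (0.24) and LRRC27 (0.36). At the level threshold, OGDHL (0.91) and C10orf143 (0.22) were just over the mean of 1 TPM, and STOX1 (-1.52) and CPEB3 (0.698 ± 0.325 TPM in control and 1.37 ± 0.526 in KO2) just under it.

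**Figure D3:**
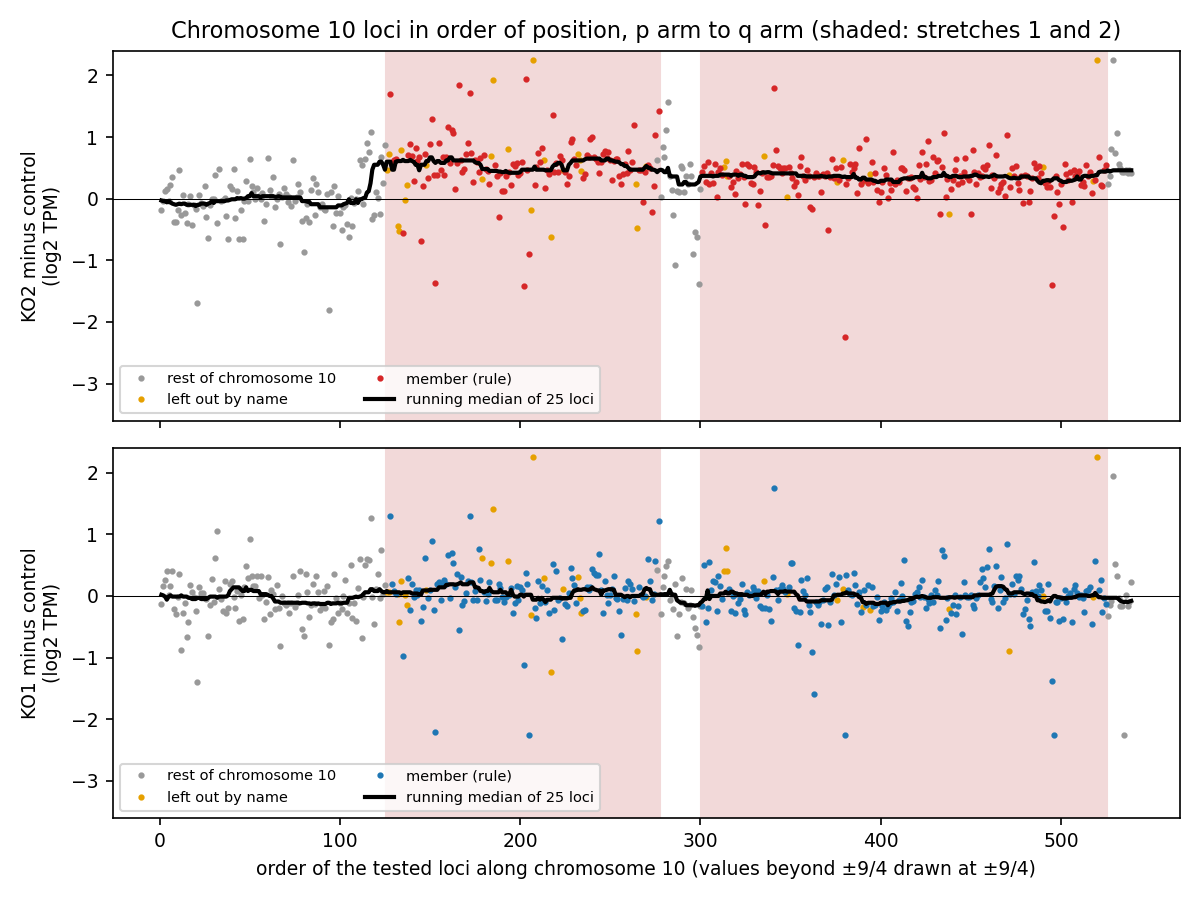
Log2 TPM difference from control (y axis) of KO2 (top) and KO1 (bottom) for every tested chromosome 10 locus in order of position (x axis). Shading marks the stretches, coloured points the members, orange points loci left out by name, grey points the rest, and the black line a running median of 25 loci. In KO2 the line lies near 0 over most of the grey loci before stretch 1 and above 0 through both stretches, and in KO1 it stays near 0.

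The members do many different jobs, and 197 of them fall in at least 1 of 7 lists drawn by role. Counts of list members above control in KO2 stand beside 92.6% of all members. They come from the contrast that chose the stretches and are a description. KO2 was above control for all 26 members of the cell cycle and repair list, with a median log2 difference of 0.38. MKI67, the nuclear protein behind the Ki-67 proliferation stain, stood at 140, 129 and 137 TPM in control A, B and C, 204, 191 and 204 in KO1 and 175, 173 and 155 in KO2. Both knockout lines lay above control without overlap, and KO1 lay above KO2. The rise in KO1 passed the test (log2 0.56, SE 0.0537, limma adjusted p = 4.63e-05). ZWINT, a kinetochore protein, stood at 122, 131 and 129 TPM in control, 153, 160 and 158 in KO1 and 203, 187 and 199 in KO2, in an ascending order of groups with no overlap, and rose in KO1 by 0.30 (limma adjusted p = 0.000584). CDK1, the kinase that drives entry into mitosis, stood at 63.0, 63.8 and 59.2 TPM in control and 86.0, 92.3 and 108 in KO2. In KO1 it stood at 59.6, 73.1 and 65.1, across the control range, with a log2 difference of 0.08 (limma adjusted p = 0.517). Smaller KO2 differences were those of SMC3, a cohesin subunit (0.31), KIF11, a spindle motor (0.24), and CEP55, which acts at the end of cell division (0.13). Of the list, 5 members rose (19.2%) and 5 fell (19.2%) in KO1, beside 20.2% and 14.1% of all tested genes, and CEP55 fell by 0.17.

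Of 35 members of growth and survival signalling, 32 were above control in KO2, with a median of 0.41. DDIT4, a stress-induced inhibitor of mTORC1, stood at 358, 375 and 368 TPM in control, 238, 226 and 215 in KO1 and 556, 585 and 553 in KO2. The knockout lines lay on opposite sides of control, and the fall in KO1 passed the test (log2 -0.70, SE 0.0422, limma adjusted p = 2.16e-06). BAG3, a co-chaperone of HSP70, was at similar levels in both knockout lines, 265, 244 and 249 TPM in KO1 and 275, 259 and 241 in KO2, above 169, 177 and 172 in control, and its rise in KO1 passed (0.55, limma adjusted p = 4.23e-05). DKK1, a secreted Wnt antagonist, stood at 252 to 263 TPM in control, 316 to 345 in KO1 and 375 to 396 in KO2, and its rise in KO1 passed (0.35, limma adjusted p = 0.000143).

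Other signalling members were at 1.28 to 1.47 times the control level in KO2 without a call in KO1. They were the death receptor FAS (log2 0.50 in KO2), the IκB kinase subunit CHUK (0.56) and the MAP kinase phosphatase DUSP5 (0.35). Others barely differed from control in KO2 or stood below it. NFKB2, an NF-κB precursor, stood at 49.6, 54.1 and 48.4 TPM in control and 56.2, 59.9 and 50.2 in KO2, with overlapping groups. It fell in KO1, at 39.9, 35.6 and 39.9 TPM (log2 -0.40, limma adjusted p = 0.00309). RGS10, which shuts off G-protein signals, stood at 106 to 119 TPM in control and 118 to 124 in KO2 and fell in KO1 to 77.0 to 83.7 (log2 -0.48, limma adjusted p = 0.000108). RASSF4, a Ras-association protein at 1.24 to 1.73 TPM in control, was at 0.762 to 1.35 in KO2. Over this list 5 members rose (14.3%) and 11 fell (31.4%) in KO1, beside 20.2% and 14.1% of all tested genes.

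All 49 members of the mitochondria and metabolism list were above control in KO2, with a median of 0.42. TFAM, which packages and transcribes mitochondrial DNA, stood at 53.2, 51.1 and 49.6 TPM in control, 63.1, 60.7 and 59.3 in KO1 and 96.7, 93.9 and 96.5 in KO2. Its KO2 level was 1.87 times the control level, and a smaller rise in KO1 passed the test (log2 0.25, SE 0.0431, limma adjusted p = 0.00169). SCD, which introduces the double bond into stearate, was among the most abundant members at 646, 609 and 614 TPM in control, 674, 705 and 717 in KO1 and 942, 915 and 918 in KO2. The groups did not overlap, and the rise in KO1 passed (0.17, limma adjusted p = 0.00561). The glycolytic enzyme PGAM1 stood at 689 to 701 TPM in control, 713 to 763 in KO1 and 862 to 930 in KO2, with no call in KO1 (log2 0.08, limma adjusted p = 0.103). PPIF, the mitochondrial cyclophilin, was at 258 to 268 TPM in control and 366 to 378 in KO2, and rose in KO1 to 308 to 312 (log2 0.25, limma adjusted p = 0.000224). The peroxidase PRDX3 and the glutathione transferase GSTO1 had KO2 differences of 0.37 and 0.30. In KO1, 9 members of the list rose (18.4%) and 5 fell (10.2%), beside 20.2% and 14.1% of all tested genes.

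The member highest above control in KO2 was HKDC1, a hexokinase family member. It stood at 14.3, 11.9 and 11.1 TPM in control, 16.8, 13.2 and 18.6 in KO1 and 48.3, 49.4 and 44.3 in KO2. KO2 stood apart at 3.83 times control (log2 1.94), while KO1 overlapped control. The KO1 difference of 0.38 was at a limma adjusted p of 0.0461 and missed the threshold under many of the alternatives tried. Among these were median centring (0.34, limma adjusted p = 0.0605) and the replicate letter as a block (limma adjusted p = 0.0575). Without KO1 C it was 0.27 (limma adjusted p = 0.160), and leaving out any KO2 library lost the HKDC1 call too. Its neighbour HK1, hexokinase of most tissues, was at 150 TPM in control and 207 in KO2 on average, a log2 difference of 0.47, and SUPV3L1 on its other side had 0.59. The lncRNA ENSG00000229261, which overlaps the start of HKDC1 on the other strand, differed the opposite way, from 3.08, 3.28 and 4.42 TPM in control to 1.50, 2.01 and 1.45 in KO1 and 1.69, 1.46 and 0.960 in KO2. Its fall in KO1 passed the test (log2 -1.12, limma adjusted p = 0.00812). No source used here says whether counting used the strand, and without it the reads of this pair cannot be told apart.

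Of 25 members in RNA processing and ribosome assembly, 24 were above control in KO2, with a median of 0.38. HNRNPF, a splicing regulator, stood at 372, 401 and 398 TPM in control, 405, 391 and 410 in KO1 and 632, 608 and 598 in KO2. KO1 overlapped control (log2 0.04, limma adjusted p = 0.414) and KO2 was 1.57-fold above it. NOLC1, a nucleolar phosphoprotein, showed the same pattern, with 460, 457 and 466 TPM in control, 467, 455 and 461 in KO1 and 674, 641 and 639 in KO2. The nucleolar helicase DDX21 stood at 375 to 392 TPM in control, 349 to 357 in KO1 and 521 to 578 in KO2. Its KO1 difference of -0.11 did not pass (limma adjusted p = 0.0568; 0.00175 by limma-voom). The translation initiation factor EIF3A and the histone chaperone family member NPM3 had smaller KO2 differences, 0.36 and 0.26. In KO1, 6 members of the list rose (24.0%) and 4 fell (16.0%), beside 20.2% and 14.1% of all tested genes.

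The 23 transcription and chromatin members were all above control in KO2, and their median of 0.50 was the highest of the 7 lists. How each list splits between the stretches, whose medians differ (0.58 and 0.36), is not given, so the order is a description. NCOA4, a nuclear receptor coactivator and ferritin receptor, stood at 114, 113 and 109 TPM in control, 117, 125 and 117 in KO1 and 177, 170 and 189 in KO2. The deacetylase SIRT1 stood at 17.4, 15.3 and 13.9 TPM in control, 14.9, 15.3 and 14.4 in KO1 and 22.8, 22.9 and 22.4 in KO2. Both were apart from control in KO2 and uncalled in KO1 (limma adjusted p = 0.117 and 0.632). TCF7L2, a Wnt pathway transcription factor, was high in both knockout lines, with 9.15, 8.98 and 8.90 TPM in control, 16.4, 14.5 and 15.3 in KO1 and 16.8, 16.6 and 15.9 in KO2. The rise in KO1 passed the test (log2 0.77, SE 0.0731, limma adjusted p = 4.47e-05), and KO1 and KO2 overlapped. ARID5B, a DNA-binding protein of histone demethylase complexes, was higher in KO1 (6.96 to 7.77 TPM) than in KO2 (5.43 to 6.37), both above control (3.88 to 4.71), and its rise in KO1 passed (0.76, limma adjusted p = 0.000931). PPRC1, a PGC-1-related coactivator, rose in KO1 by 0.21 (limma adjusted p = 0.00349) and had 0.50 in KO2. LDB1, an adaptor of LIM-domain factors, had 0.27 in KO2. In KO1, 7 members rose (30.4%) and 2 fell (8.70%), beside 20.2% and 14.1% of all tested genes.

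Among 25 members of membrane traffic, lysosome and melanosome function, 24 were above control in KO2, with a median of 0.46. PSAP, the precursor of the saposins that help degrade sphingolipids, stood at 404, 416 and 435 TPM in control, 370, 354 and 354 in KO1 and 572, 573 and 561 in KO2. As for DDIT4, the 2 clones lay on opposite sides of control, and the fall in KO1 passed (log2 -0.22, SE 0.0357, limma adjusted p = 0.00124). SEC24C, a coat protein of vesicles that leave the endoplasmic reticulum, stood at 86.5, 89.5 and 84.8 TPM in control, 103, 103 and 101 in KO1 and 150, 152 and 146 in KO2, and its rise in KO1 passed (0.24, limma adjusted p = 0.000760). WASHC2A, a subunit of the WASH complex on endosomes, was at 8.19 to 9.06 TPM in control, 12.4 to 16.1 in KO1 and 18.4 to 20.9 in KO2. It rose in KO1 by 0.67 (limma adjusted p = 0.00103), but it has a near-identical copy, WASHC2C, between which reads can be split, so its level is uncertain. ANXA7 had 0.34 in KO2 and fell in KO1 by 0.24 (limma adjusted p = 0.00814). DNMBP, a scaffold for dynamin, was higher in KO1 (88.4 to 93.4 TPM) than in KO2 (83.8 to 84.9). In KO1, 10 of the 25 members rose (40.0%) and 2 fell, beside 20.2% and 14.1% of all tested genes.

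The 24 members of the cytoskeleton, adhesion and matrix list were the most mixed, with 18 above and 6 below control in KO2 and a median of 0.32. PDLIM1, which links actin fibres to kinases, stood at 310, 303 and 313 TPM in control, 329, 342 and 321 in KO1 and 546, 527 and 528 in KO2, a KO2 fold of 1.73. VCL, vinculin of focal adhesions, stood at 157 to 161 TPM in control, 152 to 155 in KO1 and 199 to 217 in KO2. PLAU, urokinase, stood at 18.8, 19.1 and 19.4 TPM in control and 21.5, 23.1 and 23.3 in KO2, and fell in KO1 to 14.1, 12.6 and 10.5 (log2 -0.63, limma adjusted p = 0.000992). MYOF, a membrane repair protein, was abundant and did not share the common KO2 difference, at 349, 352 and 348 TPM in control, 370, 373 and 365 in KO1 and 344, 335 and 299 in KO2. LOXL4, which cross-links collagen, was low in both knockout lines, at 57.6, 63.8 and 60.7 TPM in control, 43.9, 44.3 and 43.2 in KO1 and 39.3, 48.0 and 41.2 in KO2. Its fall in KO1 passed the test (log2 -0.47, limma adjusted p = 0.000902). Of the 24 members 6 rose in KO1 and 4 fell (16.7%), beside 20.2% and 14.1% of all tested genes.

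**Figure D4:**
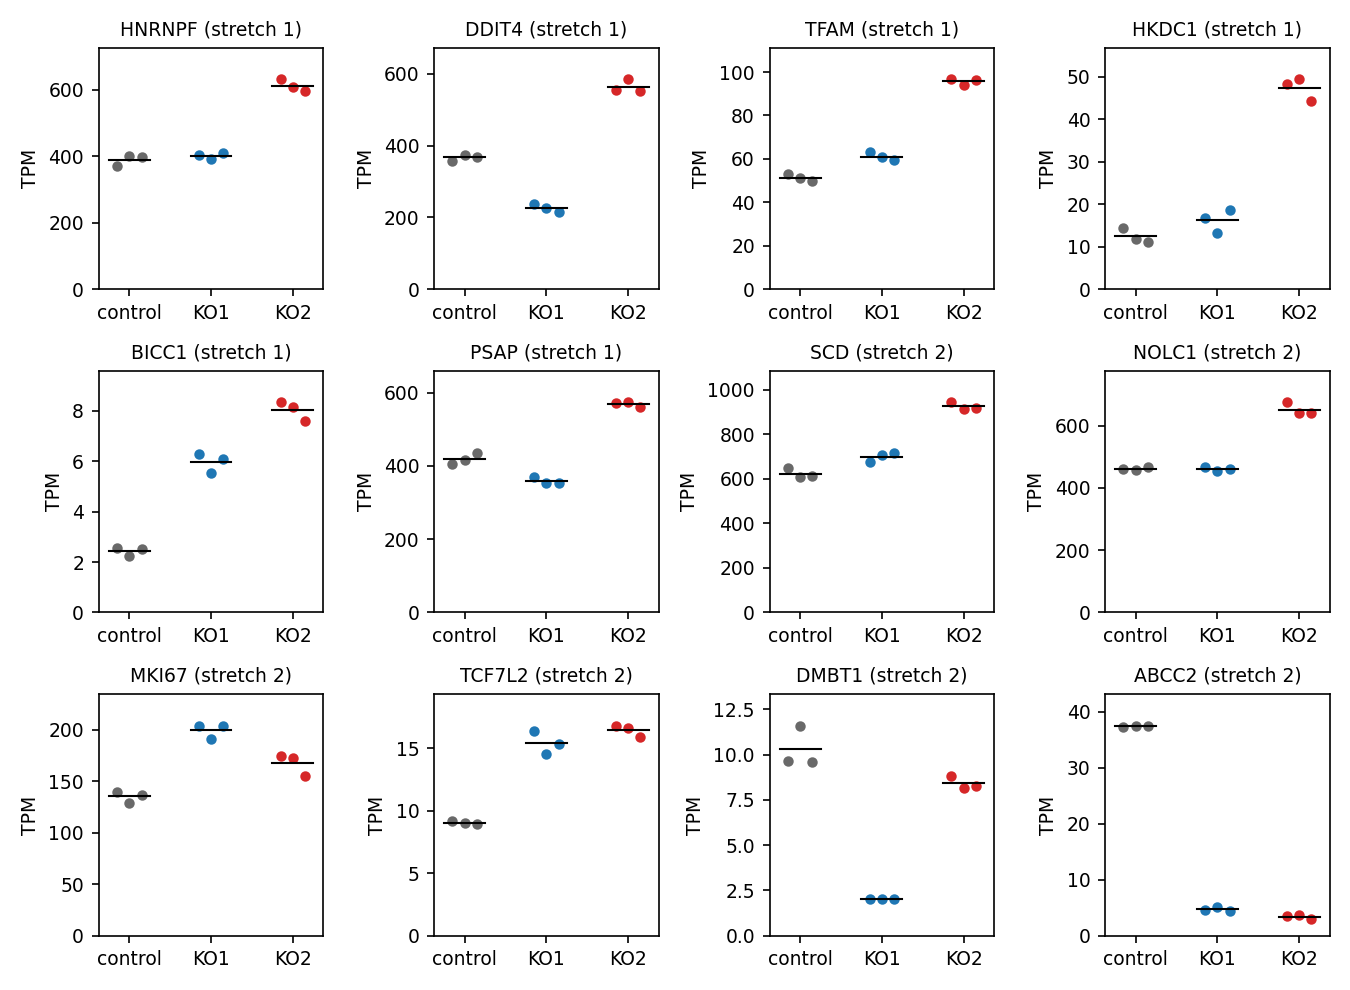
TPM (y axis, from 0) of 12 members in the 9 libraries, 1 point per library with a line at the mean of each line of cells (x axis). HNRNPF, SCD and NOLC1 show KO2 alone well above control, DDIT4 shows the clones on opposite sides of control, and ABCC2 lies at 37.2 to 37.5 TPM in control and at 3.01 to 5.05 in the knockout lines.

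Among the 25 members below control in KO2 were some of the largest differences of all. ABCC2, a drug and conjugate efflux pump, was the lowest, at 37.2, 37.4 and 37.5 TPM in control, 4.57, 5.05 and 4.48 in KO1 and 3.57, 3.66 and 3.01 in KO2. The KO1 fall passed the test (log2 -2.99, SE 0.101, limma adjusted p = 4.75e-08), and the KO2 difference was -3.46. The nearest tested loci on either side, CUTC and DNMBP, had KO2 differences of 0.51 and 0.23. ARHGAP22, a GTPase-activating protein for Rac, stood at 10.5, 12.4 and 11.2 TPM in control, 2.78, 2.60 and 2.07 in KO1 and 4.22, 4.70 and 4.26 in KO2. It fell in KO1 (log2 -2.20, limma adjusted p = 2.94e-06), and its neighbours MAPK8 and ERCC6 had KO2 differences of 0.39 and 0.38. HTRA1, a secreted serine protease, was uneven between libraries, at 6.14, 3.98 and 4.39 TPM in control and 3.03, 0.474 and 4.03 in KO2. Its KO1 values of 1.55, 1.51 and 2.60 TPM lay below control without passing the test (limma adjusted p = 0.134; 0.00336 without KO2 B, a library that enters through the shared spread). The others of the 10 lowest in KO2 were FAM241B (-0.89), the lncRNA SYT15-AS1 (-0.68), RASSF4 (-0.56), LOXL4 (-0.51), PSTK (-0.46), which modifies selenocysteine tRNA, and the pseudogene PIPSL (-0.42). The 5 members called lower in KO2 were ABCC2, ARHGAP22, LOXL4, ENSG00000229261 and ZCCHC24 (-0.21). The last was named after its value was seen.

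At the other extreme, 15 members were at least 2-fold above control in KO2, and 12 of these lay in stretch 1. Besides HKDC1 they include COMTD1, a predicted methyltransferase, at 21.9, 19.6 and 18.3 TPM in control, 21.8, 18.4 and 16.5 in KO1 and 37.1, 61.2 and 41.4 in KO2. Its neighbour VDAC2, a channel of the outer mitochondrial membrane, had a KO2 difference of 0.59. BICC1, an RNA-binding protein, stood at 2.54, 2.23 and 2.53 TPM in control, 6.28, 5.52 and 6.08 in KO1 and 8.33, 8.17 and 7.61 in KO2. Both knockout lines were well above control, and the rise in KO1 passed (log2 1.29, SE 0.114, limma adjusted p = 2.95e-05). GFRA1, a receptor for GDNF, rose in KO1 from 1.77 to 2.30 TPM in control to 3.52 to 3.89 (log2 0.85, limma adjusted p = 0.00151) and stood at 4.09 to 4.33 in KO2. Some of the other large values rest on low levels too. LNCAROD stood at 1.13, 1.14 and 3.34 TPM in control and 8.15, 5.87 and 4.26 in KO2. The lncRNA ENSG00000244332 rose in KO1 by 1.76 (limma adjusted p = 0.00783) and stood at 1.58, 4.03 and 6.10 TPM in control, 10.1, 10.8 and 13.9 in KO1 and 9.36, 14.9 and 11.6 in KO2. VSIR, an immune checkpoint protein, stood at 1.64, 0.669 and 1.29 TPM in control and 2.80, 3.20 and 2.62 in KO2. The pseudogene BMS1P2 (KO2 difference 1.29) has near-identical copies, and its level is uncertain.

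In KO1 the loci showed no common difference from control. The median log2 difference of the 339 from control was 0.02, beside 0.04 over all tested genes, with 180 members above 0 and 159 below. By the limma fit 60 members rose, 17.7% of them beside 20.2% of all tested genes, and 45 fell, 13.3% beside 14.1%. With each library centred on the median of its tested genes the split was 47 and 66, and the median was -0.02. By limma-voom on recovered reads it was 46 and 72. The groups did not overlap for 87 members above (25.7%, beside 29.1%) and 71 below (20.9%, beside 20.7%). In stretch 1 24 members rose and 14 fell, with a median of 0.08, and in stretch 2 36 rose and 31 fell, with a median of -0.01. In the limma fit on the deposited values, members were thus called in KO1 about as often as all tested genes were. For the centred and limma-voom counts no share over all tested genes is given, so they cannot be compared in this way.

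For 3 of the largest falls in KO1, the KO2 level stood nearer to control. DMBT1, a secreted scavenger receptor protein, stood at 9.66, 11.6 and 9.61 TPM in control, 2.04, 2.02 and 2.02 in KO1 and 8.84, 8.16 and 8.29 in KO2. It fell in KO1 (log2 -2.34, SE 0.111, limma adjusted p = 3.48e-07), and the KO2 difference was -0.28. HOGA1, a mitochondrial aldolase of hydroxyproline breakdown, fell in KO1 from 1.23 to 1.83 TPM to 0.397 to 0.522 (log2 -1.59, limma adjusted p = 0.000999) and was at 1.63 to 1.93 in KO2. FAM241B, a small membrane protein gene, had 58 reads over the control libraries and 3 over the KO1 libraries. The ratio of reads per library total, KO1 over control, was 0.0516 with an exact 95% interval of 0.0103 to 0.159, which covers counting error only. In KO2 it stood at 2.42, 2.09 and 4.50 TPM, below 5.55, 5.63 and 4.62 in control.

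Set directly beside KO1, the members of KO2 had a median log2 difference of 0.41, against -0.04 over all tested genes. Above 0 were 311 members. The limma fit called 228 higher, beside 11.8% of all tested genes, and 6 lower, beside 16.9%. These counts use the same KO2 libraries as the rule and are a description. The 6 were MYPN, PAPSS2, MYOF, ABCC2, DNMBP and MKI67, of which MYPN and PAPSS2 were named after their values were seen. In stretch 1 the median was 0.49 and in stretch 2 it was 0.35.

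The promoters of the members were set beside those of all tested genes, members included, in base composition and motifs, without a test. A RefSeq promoter had 300 bases, 250 before the start site and 50 after. It was matched by symbol, or else by Ensembl identifier, for 266 of the 339 members and for 10317 of 14512 tested genes. Median GC content was 64.3% in members and 65.3% in all tested genes, and the median number of CpG pairs was 25 and 26. The GC box GGGCGG was present on either strand in 63.5% of member promoters and 70.3% of all, CCAAT in 38.0% and 37.5%, and TATAAA in 5.64% and 5.41%. The ETS motif CCGGAAG was in 16.5% and 20.1%, the E-box CACGTG in 12.4% and 10.4%, and the cAMP response element TGACGTCA in 2.26% and 3.33%. GC box matches may overlap each other, and each promoter was counted once per motif. A match describes letters and not a bound site.

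The annotated start base was A for 125 members (47.0%, beside 45.1% of all tested genes with a promoter), as in TFAM, HKDC1, SCD and ABCC2 above, and G for 103 (38.7%, beside 41.1%), as in HNRNPF and TCF7L2. The KO2 difference had a median of 0.42 over the 125 members that start with A and 0.39 over the 141 that start with another base. In stretch 1 the medians were 0.52 and 0.58, and in stretch 2 they were 0.37 and 0.32, so the order turned between the stretches. In KO1 the medians were 0.02 and -0.01. The RefSeq start is 1 annotated position per gene, and the start that MEL624 cells use was not measured here.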

How the data were processed

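The authors deposited 1 table of log2 TPM values for the 9 input libraries, and the values imply a small offset added before the logarithm. Per the labels' protocols, mRNA was purified with magnetic beads and made into strand-specific libraries. Per the submitters' processing notes, the tools were edgeR 3.12.1 in R 3.3.3, featureCounts, deepTools 3.0.2, SAMtools 1.7 and HISAT2 2.0.4, on hg38. Not given in the sources used here are their roles, the annotation, the strand setting and any gene filter. Because TPM is relative, a level that is higher in 1 set of genes slightly lowers all others.

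Positions and kinds of genes came from GENCODE, matched by identifier for 15138 of 15258 genes. Whole reads were recovered from the values for 100% of genes (tolerance 1e-06 reads). Lines were compared with limma 3.58.1 in R 4.3.3 (trended variance, all 9 libraries, 6 residual degrees of freedom) on the deposited log2 values, two-sided, with p-values adjusted by Benjamini-Hochberg over all 14512 genes whose mean reached 1 TPM. Log2 differences are of line means, and SD is over 3 replicates. The design text calls the replicates biological, but nothing says how they were separated, so p-values measure the spread between these libraries. Read totals of 39 to 95214 per member over the 9 libraries (37 members under 200) set the precision. A nominal floor of 3 reads, chosen here and no property of the deposited values, equals 0.263 to 0.382 per 1e+06 reads.

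The members and the role lists were chosen with earlier results of these data known. Named genes were up to 5 members of each role list with the highest mean TPM, the 10 highest and 10 lowest in KO2, the 6 highest and 6 lowest of those called in KO1, the loci at the ends of the rule and well-known genes of the stretches. Neighbours of named genes were added after values were seen. The result for 1 gene is not reported here. The alternatives tried were log2(TPM + 1), other filters, median centring, no variance trend, the replicate letter as a block, limma-voom on recovered reads, leaving out each library, and adding the loci left out by name.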

Additional observations from a re-analysis of the deposited data

How the results depend on the processing

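The median member difference in KO2 was 0.39 with log2(TPM + 1), 0.40 for the 283 members at 5 TPM or more, 0.43 with median centring and 0.40 to 0.43 with single libraries left out. That of KO2 against KO1 was 0.38, 0.41, 0.46 and 0.40 to 0.42 in the same order. The KO1 median of 0.02 turned to -0.02 with median centring, which moved the median of all tested genes from 0.0350 to -0.0015, and was 0.00 to 0.03 with single libraries left out. By limma-voom 72 members, not 45, fell in KO1 and 12, not 5, were lower in KO2, while 46 rose in KO1 and 253 were higher in KO2. The cause was not tested, and shares over all tested genes are not given for the alternatives. Leaving out single libraries gave 41 to 62 members that rose and 34 to 53 that fell in KO1, and 219 to 246 higher and 4 to 6 lower in KO2. Libraries with the same replicate letter did not deviate together: their deviations correlated at -0.074 to 0.037 across lines. Whether the letters stand for a shared day or batch is not given. With the replicate block, 50 members rose and 41 fell in KO1, and 236 were higher and 4 lower in KO2.

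Of the 74 named genes, the 39 called in KO1 kept their direction in all 617 values under these alternatives, while 8 of the 35 not called changed sign in 1 each. The call was lost in 57 values of 8 genes: BMS1P2, CCAR1, EIF3A, ENSG00000244733, HKDC1, NUTM2A-AS1, PDLIM1 and RASSF4. In 11 genes 21 values gained one. Depth limits the loci near 1 TPM, where 3 libraries a line leave wide errors.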
